A study of Homo sapiens with 6 samples.

Results

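The baseline transcriptome of A549 cells is described here from the 2 arrays of cells that had received the control siRNA, out of 6 arrays in the series, chosen by their labels alone. A549 is an established human lung adenocarcinoma line, grown in serum-containing medium, transfected with the control siRNA (siNC in the labels) by a lipid reagent and harvested 48 hours later for total RNA. The other 4 arrays came from the same line after siRNA against MYEOV and were not used. All arrays share the transfection, so no untransfected cells stand behind these levels, and the sequence of the control siRNA is unstated in the labels. Nor do they tell whether the arrays came from separate transfections. The spread between them may therefore be technical, and with 1 group there is no comparison and no p-value.

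A549 is widely used as a stand-in for the alveolar type 2 cell, the surfactant-making cell of the air sac. Its tumour of origin is known to lack STK11 and CDKN2A function and to hold a damaged KEAP1. KEAP1 normally hands the transcription factor NRF2 to a ubiquitin ligase for destruction. When KEAP1 fails, NRF2 persists and switches on glutathione, thioredoxin and NADPH-producing genes through the antioxidant response element in their promoters.

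Each value is a log2 RMA signal, a background-corrected and array-equalised summary of a transcript's probes, and both arrays' values are given in the order array 1 and array 2. Probe sets bind with different strength, so a gene's rank is a rank of signal and not of molecules. Some abundant transcripts read low: the actin-severing protein CFL1 had 4.86 and 5.04, and the ribosomal protein RPL37A had 5.57 and 5.46. A low reading therefore does not show that a transcript is absent. In bulk RNA, fewer cells with a transcript and less of it per cell cannot be told apart.

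A reference for absent transcripts was taken from 46 genes of other organs, such as milk caseins, pituitary hormones, pancreatic enzymes and tooth proteins. Of these, 22 had a named row, with levels from 1.60 to 5.91 and a median of 3.68. The 95th percentile of these genes, 5.55, is called the off-tissue level below, and 2 of the 22 lie above it by construction, LHB and AQP2. Of all 14884 named genes, 7235 (48.6%) were above it, with a median over all named genes of 5.44. Of the 11916 protein-coding genes, 6770 (56.8%) were above it, with a median of 6.0, and since nearly all listed genes code for proteins, that share is the one to set their counts against. The highest 25% of named genes began at 7.37 and the highest 10% at 8.80.

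The arrays' medians over all rows were both 4.09. Between the arrays, 714 named genes differed by more than 0.5 on the log2 scale and 36 by more than 1. Most lay at low levels: above the off-tissue level 68 differed by more than 0.5 and 1 by more than 1. The SD of the difference was 0.303 in the lowest decile of genes by level and 0.127 in the highest. A high level is thus known more closely than a low one.

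**Figure D1:**
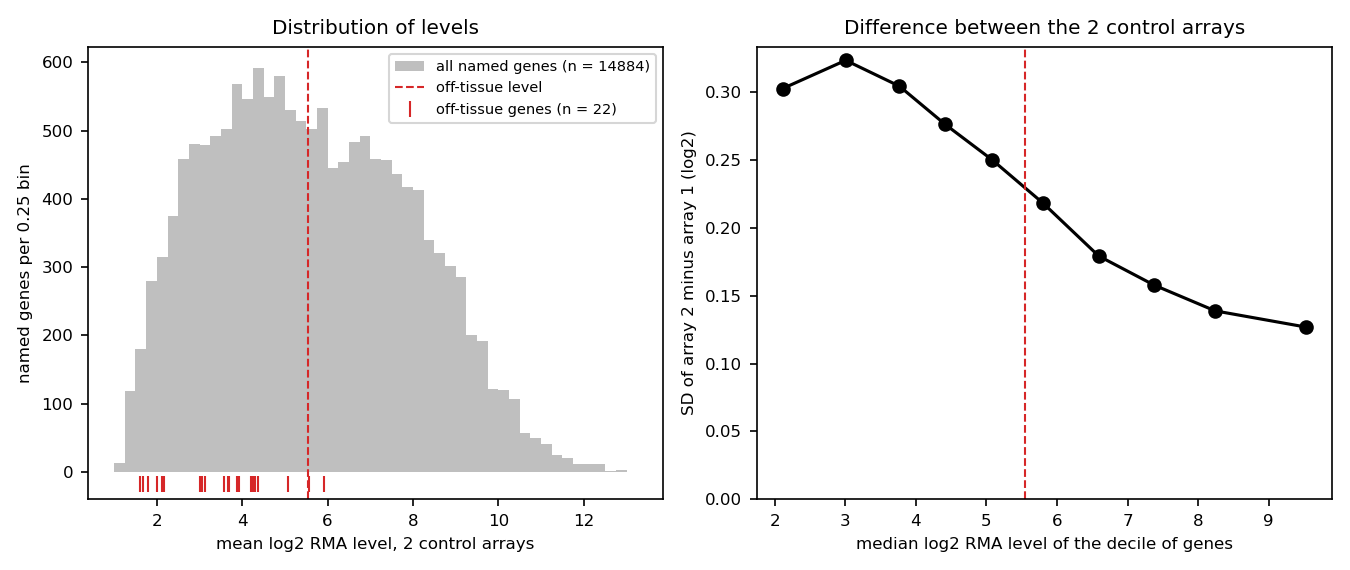
Left, number of named genes by mean log2 RMA level of the 2 control arrays, with the 22 off-tissue genes as ticks and the off-tissue level, 5.55, as a dashed line. Right, SD of the difference between the 2 arrays (log2) for each decile of genes against the median level of that decile. The SD was 0.303 in the lowest decile and 0.127 in the highest.

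The 30 highest named genes included ribosomal proteins, chaperones, annexins and non-coding RNAs. Of the 30, 24 code for proteins, and 6 of these are ribosomal proteins (RPL41, RPS27, RPL12, RPL10, RPS28 and RPS15), beside the ribosomal pseudogene RPL13AP20. The list of other ribosomal proteins ranged more widely, with 8 of 9 above the off-tissue level and a median of 8.40, from RPL19 (10.70 and 10.65) to RPL30 (6.16 and 6.28) and RPL37A, below the level as given above. ANXA1, an annexin that binds membrane phospholipids, had 12.47 and 12.59, and HSPA9, the mitochondrial HSP70 chaperone, had 12.50 and 12.48. TMSB10, which sequesters actin monomers, had 12.52 and 12.42, and the elongation factor EEF2 had 12.42 and 12.41. The endoplasmic reticulum held several of the top places with the lectin chaperones CALR (12.35 and 12.39) and CANX (12.14 and 12.19), the prolyl isomerase PPIB (12.23 and 12.10) and the oligosaccharyltransferase subunit DAD1 (11.86 and 11.92). Nuclear transport was represented by KPNB1, importin beta (12.15 and 12.23), and CSE1L, which returns importin alpha to the cytoplasm (12.04 and 12.10). Among the same 30 were 3 genes of the NRF2 list (TXN, PRDX1 and UGDH), the keratin KRT18 and the chemokine CXCL5. KRT18 has 2 rows, and with these averaged it lay at the 96.9th percentile of named genes in place of the 99.8th.

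The exact order within the 30 is not resolved. In 26 of the 29 neighbouring pairs the arrays' values of both genes overlapped. The highest row belonged to ANXA2P2 (12.96 and 13.03), a pseudogene of annexin A2 whose probes can also bind the parent transcript. HSPA1A (12.07 and 11.84) has the near-identical copy HSPA1B, and its signal cannot be assigned to a single gene. RMRP, the RNA of the RNase MRP complex, had 12.86 and 12.68.

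Lung differentiation genes were mostly at or below the off-tissue level. Of 76 listed genes, 52 had a named row, and 10 of these were above it, with a median of 4.52. Across the alveolar type 2, alveolar type 1, ciliated, airway basal and neuroendocrine lists, between 0 and 2 members each were above. CEACAM6 and LPCAT1 were the 2 of the 52 in the highest 10% of named genes. The count depends on the level chosen: it was 18 with a gene's rows averaged and 19 with the 90th percentile of the off-tissue genes.

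Of 13 alveolar type 2 genes with a row, 2 were above the off-tissue level. LPCAT1, which remodels surfactant phosphatidylcholine, had 9.30 and 9.35, and the transcription factor ETV5 had 5.83 and 5.91. The surfactant proteins were all lower: SFTPB had 4.84 and 5.12, SFTPC 4.44 and 4.11, SFTPD 5.07 and 5.20, SFTPA1 2.95 and 2.79, and SFTPA2, a near-identical copy of SFTPA1, 4.61 and 4.55. The surfactant-processing protease NAPSA had 3.83 and 3.43, and LAMP3, a lamellar body protein, had 5.06 and 4.83. NKX2-1, the transcription factor that defines lung and thyroid epithelium, had 4.58 and 4.58. The label's cell line thus lacked a signal above the off-tissue level for the defining products of the type 2 cell, as far as they had a row. The lipid transporter ABCA3 and the phosphate transporter SLC34A2 were not analysed here.

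The other lung types gave few signals. Of 8 alveolar type 1 genes, EMP2, a membrane protein of that cell (7.36 and 7.39), and RTKN2 (5.75 and 5.74) were above, while AGER, the type 1 cell's most abundant surface receptor, had 5.49 and 5.56. Of 5 club and goblet genes, 3 were above: CEACAM6, an adhesion protein (9.96 and 10.16), AGR2, a disulfide isomerase that folds mucins (7.57 and 7.17), and SPDEF, the goblet cell transcription factor (6.86 and 6.70). The trefoil peptide TFF3 had 4.79 and 4.76. Of 8 ciliated genes 0 were above, the highest being FOXJ1, the master regulator of motile cilia, at 5.38 and 5.45. Of 9 basal genes 1 was above, the laminin receptor BCAM (7.83 and 8.15), whereas KRT5 and KRT14, the defining basal keratins, had 3.71 and 3.69 and 3.27 and 3.42. Of 9 neuroendocrine genes 2 were above, the aromatic amino acid decarboxylase DDC (6.68 and 6.70) and GRP, gastrin-releasing peptide (5.59 and 5.72), while chromogranin A, CHGA, had 4.64 and 4.23.

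Transcription factors of endoderm and epithelial lineages were above the off-tissue level in part. Of 22 with a row, 12 were above the off-tissue level, a share of 54.5%, close to that of all protein-coding genes. FOXM1, a factor of dividing cells, had 9.54 and 9.54, and KLF5, an epithelial factor, had 8.73 and 8.55. The endoderm pioneer factor FOXA2 had 8.11 and 8.02, SOX9, of the embryonic lung bud tips, 7.90 and 7.81, SOX2, of the proximal airway, 7.61 and 7.62, and GATA6 7.26 and 7.17. FOXA1 was lower, at 5.83 and 5.90. The intestinal factors CDX1 and CDX2 (5.21 and 5.13, and 4.16 and 4.37) and the pancreatic factor PDX1 (4.99 and 4.99) were below.

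Fibrinogen stood out among liver plasma proteins. All 3 chains, which the liver normally assembles into the clotting protein, were above the off-tissue level: FGB had 9.66 and 9.93, FGA 9.33 and 9.50, and FGG 7.12 and 7.16. Complement C3 had 8.16 and 8.20, APOH, a phospholipid-binding plasma glycoprotein, 7.60 and 7.73, and vitronectin, VTN, a mean of 6.23 (SD 0.32, n = 2). Those 6 and ITIH2, at 5.43 and 5.72 with 1 array on each side of the level, made up the 7 of 24 above. The classic liver products were low, with albumin, ALB, at 3.24 and 3.29, transferrin, TF, at 3.26 and 3.19, and alpha-fetoprotein, AFP, at 2.28 and 2.27. Of 10 gastrointestinal genes 1 was above, the annexin ANXA10 (6.95 and 6.92), and the gut brush border protein villin, VIL1, had 4.53 and 4.89.

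**Figure D2:**
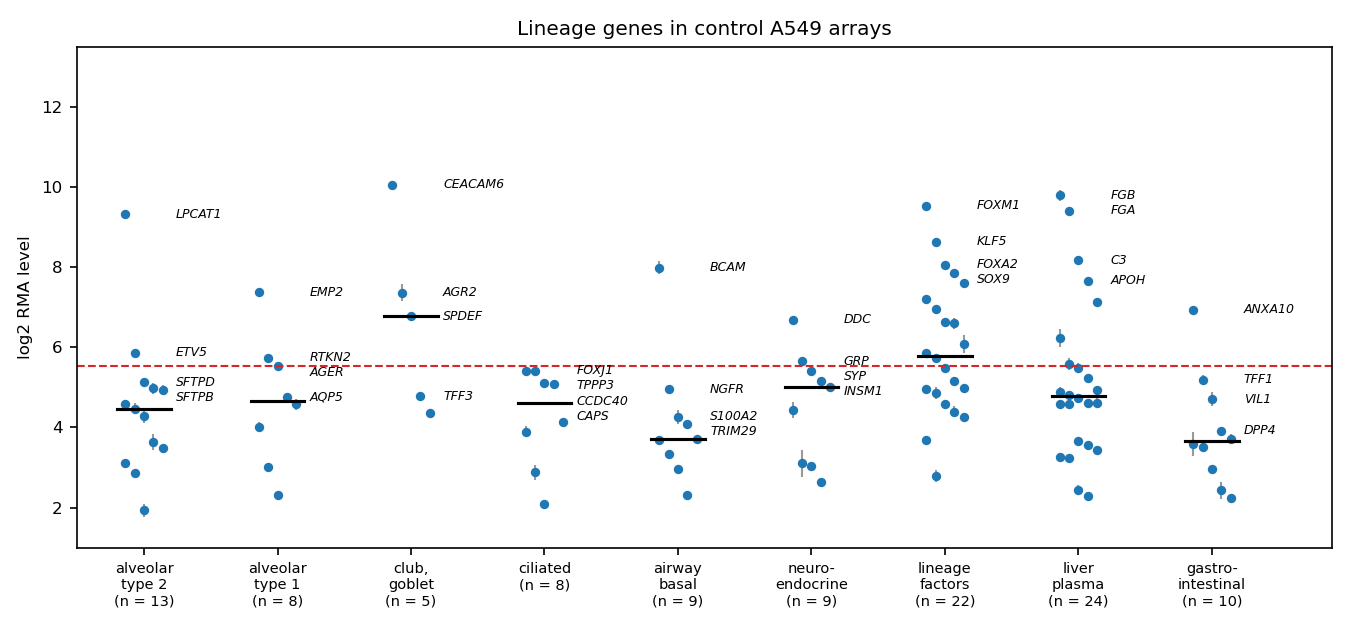
Log2 RMA level of each lineage gene with a named row (points, mean of the 2 control arrays, grey lines spanning both arrays), the median of each list (black bars) and the off-tissue level, 5.55 (dashed). The highest 4 members of each list are named. The alveolar, ciliated, basal, liver and gastrointestinal medians lie below the dashed line, whereas FGB and FGA lie at 9.80 and 9.42.

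Keratins showed a narrow repertoire. Keratins are the paired filament proteins of epithelia, and KRT8 and KRT18 form the pair of simple, single-layered epithelium. Of 47 keratin genes with a row, 5 were above the off-tissue level, with a median over the family of 3.70. KRT18 had 12.07 and 12.06, KRT80 9.16 and 9.19, KRT7, a keratin of glandular ducts and lung, 8.22 and 8.20, and KRT8 a mean of 6.94 (SD 0.08, n = 2). KRT19 had 5.75 and 5.50, 1 array on each side of the level. The other 42 had levels between 1.88 and 5.48, including all 13 hair keratins, from 2.43 to 5.39. KRT20, the gut keratin, had 3.45 and 3.37. The count was 9 in place of 5 when array 2 was left out and the level reset from array 1, and also 9 with a gene's rows averaged or with the 90th percentile of the off-tissue genes. KRT8 and KRT18 have many processed pseudogenes, so their signals may be shared with these copies.

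Epithelial and mesenchymal genes were both above the off-tissue level in part. Of 22 junction genes 15 were above, led by the tight junction scaffold TJP1 (10.57 and 10.63), the desmosomal cadherin DSG2 (10.20 and 10.34), claudin CLDN1 (10.20 and 10.10) and desmoplakin, DSP (9.11 and 9.22). The adhesion molecule EPCAM had 6.92 and 7.11. The epithelial splicing regulators ESRP1 and ESRP2 were below, at 4.40 and 3.65 and at 4.33 and 4.41, as was the matriptase gene ST14 at 3.69 and 3.78. Of 13 mesenchymal genes 8 were above, among them the matrix proteins THBS1 (9.10 and 9.19) and FN1 (8.66 and 8.99). The transcription factors ZEB1 (6.55 and 6.37), SNAI2 (6.18 and 6.55) and SNAI1 (5.95 and 6.01) followed, whereas TWIST1 had 3.22 and 3.11. Vimentin, VIM, the mesenchymal filament protein, had 9.69 and 9.64. The shares above, 15 of 22 and 8 of 13, are near the 56.8% of all protein-coding genes. E-cadherin and N-cadherin were not analysed here.

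Antioxidant response elements were searched in the promoters of NRF2 output genes, because the high readings of that list invite a look at the sequence NRF2 binds. The element was spelled TGACNNNGC and read on both strands in the RefSeq promoter table (GRCh38.p14), from 250 bases before to 50 bases after each start. Below are the matches of 4 genes with strong signals and of GSTM1, whose signal was low. Each is written along the gene's strand with the match in capitals and up to 30 bases on either side. A match on the opposite strand reads as GCNNNGTCA, and the match in GSTP1 also holds the AP-1 motif TGACTCA.
PGD, chr1:10398833-10398901, + strand: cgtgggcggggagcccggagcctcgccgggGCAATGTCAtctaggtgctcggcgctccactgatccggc
GSTP1, chr11:67583716-67583784, + strand: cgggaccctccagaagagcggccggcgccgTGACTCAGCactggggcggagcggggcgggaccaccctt
GPX2, chr14:64942829-64942897, - strand: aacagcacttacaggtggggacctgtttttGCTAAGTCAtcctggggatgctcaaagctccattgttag
TXNRD1, chr12:104215650-104215718, + strand: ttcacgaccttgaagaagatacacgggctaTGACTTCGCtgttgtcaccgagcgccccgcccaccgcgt
GSTM1, chr1:109687622-109687690, + strand: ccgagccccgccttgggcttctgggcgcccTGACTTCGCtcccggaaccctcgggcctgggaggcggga

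The matches begin 201, 66, 122, 99 and 165 bases before the start of PGD, GSTP1, GPX2, TXNRD1 and GSTM1. TXNRD1 also holds a second match that reaches its start. The matches printed for TXNRD1 and GSTM1 have the same 9 letters, with readings of 9.06 and 9.05 for TXNRD1 and a mean of 3.75 (SD 0.36, n = 2) for GSTM1. The printed bases are those of the reference genome, and whether A549 cells hold them, or the GSTM1 gene at all, was not tested. Genes with a match that is not printed were FECH (8.36 and 8.41), NRG4 (6.92 and 7.15), CBR1 (6.71 and 6.75), GSTA4 (6.08 and 6.20) and MAFF (5.96 and 5.86). The highest genes of the list, TXN, PRDX1 and UGDH, were not among those with a match. Of the 36 genes of the NRF2 list with a row and a promoter, the pathway's regulators included, 10 (27.8%) held the element. Among protein-coding named genes 1400 of 9707 (14.4%) held it. Over all promoters in the table the share was 13.6%. These are matches of letters in a short window, not measured binding, and the share was not tested.

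NRF2 output genes gave strong signals. Of 90 listed genes, 44 had a row and 38 of these (86.4%) were above the off-tissue level, against 56.8% of protein-coding genes, with a median of 8.40. In the highest 25% of all named genes lay 26 of them, and 17 lay in the highest 10%. Without the pathway's own regulators, 30 of 36 were above and the median was 8.23. The list was chosen with earlier results of these data known, so these shares are a description. A high share was not particular to this list: it was 93.1% for the metabolic genes and 100% for the cell division genes, but 48.6% for the receptors.

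Of 10 listed regulators of the pathway, 8 had a row and all 8 were above the off-tissue level. NFE2L2, the gene of NRF2 itself, had 7.91 and 7.93, and its repressor KEAP1 had 8.64 and 8.73. CUL3, the scaffold of the ligase that KEAP1 serves, had 9.41 and 9.42. SQSTM1, the autophagy receptor p62 that binds KEAP1, had 8.82 and 8.71. The related factor NFE2L1 had 9.92 and 9.76. The small partner MAFG was lower, with a mean of 7.22 (SD 0.32, n = 2), and MAFF had 5.96 and 5.86.

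The thioredoxin system held the 2 highest of the 44 genes, TXN and PRDX1. Thioredoxin itself, TXN, had 12.22 and 12.37, and the peroxidase PRDX1 that it recharges had 12.13 and 12.25. Sulfiredoxin, SRXN1, which repairs overoxidised peroxiredoxins, had 10.52 and 10.48, PRDX6 10.03 and 10.17, and thioredoxin reductase, TXNRD1, 9.06 and 9.05. The arrestin-like protein TXNIP, which binds and inhibits thioredoxin, was the 1 member below, at 4.78 and 4.47.

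Glutathione genes split. Glutathione reductase, GSR, had 11.18 and 11.30, and the transferase GSTP1 had 11.24 and 11.19. The peroxidases GPX4 and GPX2 had 9.61 and 9.60 and 9.16 and 9.09, and glutathione synthetase, GSS, had 8.81 and 8.76. The 3 members below were also transferases: GSTM3 at 4.32 and 4.46, GSTA1 at 3.77 and 4.51, and GSTM1 as given above. The mean levels of the transferases thus ran from 3.75 (GSTM1) to 11.22 (GSTP1). Those of the GSTM and GSTA families share sequence, so their signals may not be fully separate. The rate-limiting ligase subunits GCLC and GCLM and the cystine carrier SLC7A11 were not analysed here.

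NADPH supply and heme breakdown were high too. Transketolase, TKT, had 11.81 and 11.77 and phosphogluconate dehydrogenase, PGD, 11.49 and 11.51, both in the pentose phosphate pathway, while transaldolase, TALDO1, had 7.49 and 7.54. HMOX1, heme oxygenase, had 10.77 and 10.59, and BLVRB, which reduces biliverdin, 10.91 and 10.82. UGDH, which makes UDP-glucuronate for conjugation reactions, had 12.10 and 12.21, and PTGR1, a reductase of prostaglandins and reactive aldehydes, a mean of 10.93 (SD 0.09, n = 2). The carbonyl reductases CBR1 and CBR3 were modest, at 6.71 and 6.75 and at 5.84 and 5.85. Below the level were the carboxylesterase CES1 (4.41 and 4.90) and FGFBP1 (3.70 and 3.62). NQO1, the aldo-keto reductases and the ABC efflux pumps were not analysed here.

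**Figure D3:**
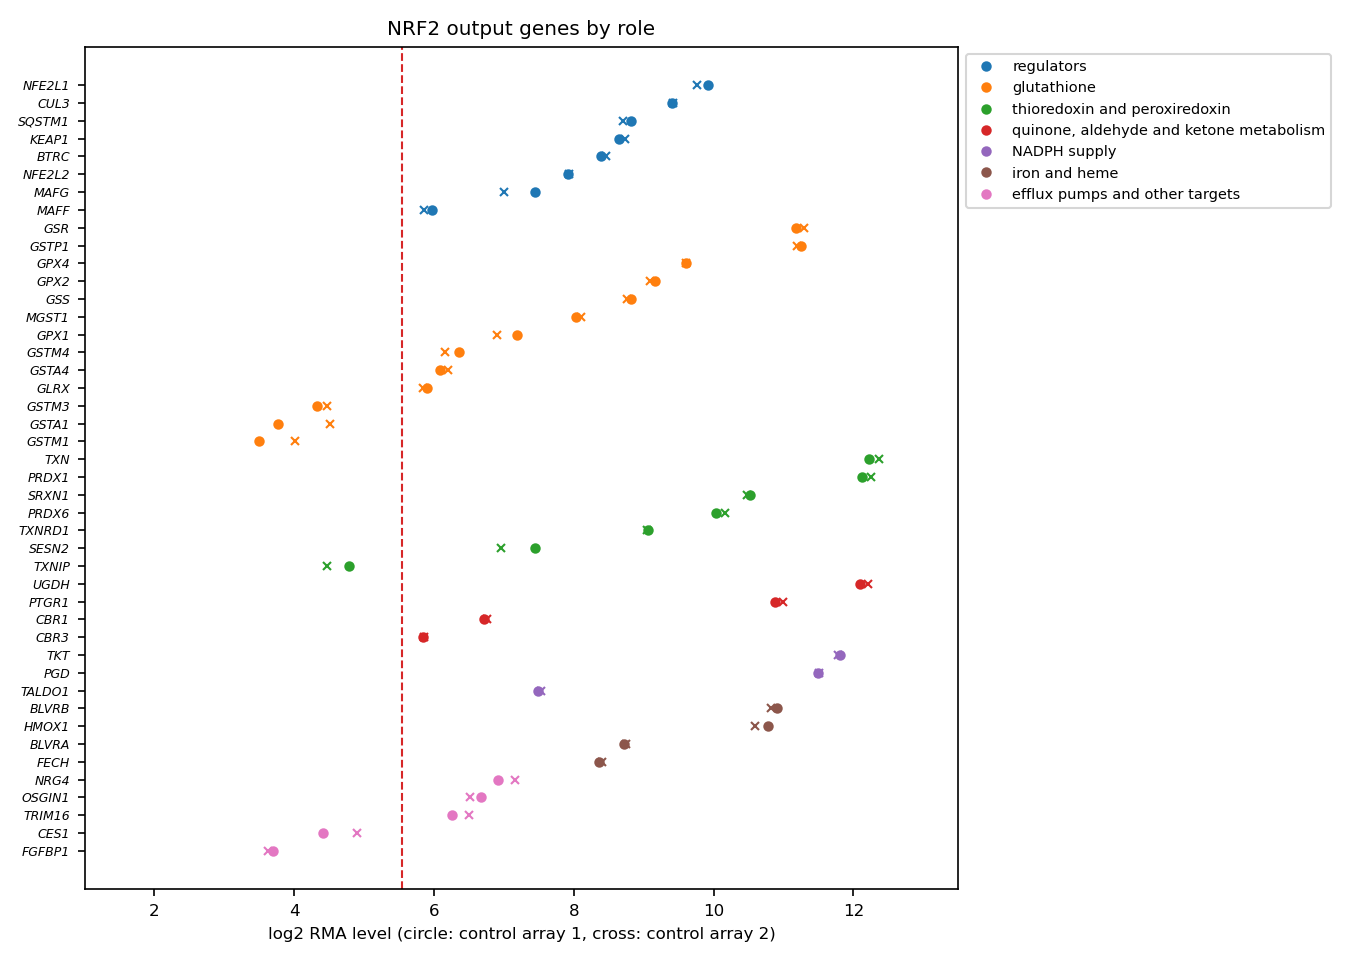
Log2 RMA level in control array 1 (circles) and array 2 (crosses) of the 44 NRF2 output genes with a named row, grouped by role, with the off-tissue level, 5.55, dashed. Genes left of the dashed line are TXNIP, CES1, FGFBP1 and the transferases GSTM3, GSTA1 and GSTM1, and TXN, PRDX1 and UGDH lie above 12.

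Receptor genes as a whole were not high. Of 213 listed, 109 had a row and 53 (48.6%) were above the off-tissue level, fewer than the 56.8% of protein-coding genes, with a median of 5.47. Within that average, 13 were in the highest 10% of named genes. The integrins had 0 members with a row and were not analysed here.

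Among receptor tyrosine kinases, which relay growth factor signals, 13 of 32 were above and 4 were in the highest 10%. AXL, the receptor of GAS6, had 10.87 and 10.65, EGFR 10.81 and 10.57, MET, the receptor of hepatocyte growth factor, 10.57 and 10.56, and IGF1R 10.18 and 10.12. The ranges of AXL and EGFR overlapped, so their order is not resolved. A middle group held EPHA2 (8.74 and 8.54), ROR1 (8.21 and 8.12), FGFR4 (7.19 and 7.36) and FGFR1 (6.91 and 6.83). Other members of the EGFR family were low, with ERBB3 at 4.62 and 4.67 and ERBB4 at 3.40 and 3.63. The fusion targets of lung cancer drugs ALK and RET had 3.69 and 3.66 and 3.74 and 3.83, and the vascular and stem cell receptors KDR, FLT1 and KIT had 3.53 and 3.58, 3.45 and 3.61, and 2.77 and 3.02.

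Cytokine receptors were led by OSMR, the oncostatin M receptor, at 10.08 and 9.97. Of 18 with a row 8 were above, and others were IL17RA (7.71 and 7.45), IL6R (7.38 and 7.18), IL4R (7.12 and 6.89) and LIFR (6.78 and 6.91). Both chains of the interferon gamma receptor were above, IFNGR2 at 6.86 and 6.84 and IFNGR1 at 6.35 and 6.56. The chemokine receptors CXCR4, CXCR2 and ACKR3 were below, at 4.56 and 4.48, 3.40 and 3.39, and 3.20 and 3.20.

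Of 18 Wnt, Notch and Hedgehog receptors 13 were above, among them NOTCH1, NOTCH2, NOTCH3 and the Hedgehog receptor PTCH1. The Wnt members alone were above in 9 of 13, with FZD1, FZD4, FZD10 and LGR5 below. LGR4, the R-spondin receptor, had 10.35 and 10.35, the co-receptor LRP6 9.48 and 9.52, the Frizzled FZD6 9.25 and 9.17, and LRP5 8.86 and 8.80. LGR5, the stem cell relative of LGR4, had 2.76 and 3.10. Notch receptors stepped down from NOTCH2 (7.66 and 7.73) and NOTCH1 (6.93 and 7.26) to NOTCH4 (4.61 and 4.66).

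Of 10 nuclear receptors 4 were above. The aryl hydrocarbon receptor AHR, a sensor of pollutants that is not a member of the nuclear receptor family proper, was listed with them and had 10.40 and 10.17. PPARG, a regulator of lipid genes, had 7.98 and 7.84. The steroid receptors ESR1 (3.32 and 3.66) and PGR (3.15 and 2.73) were below. The glucocorticoid receptor was not analysed here.

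Of 11 further surface receptors 7 were above. The poliovirus receptor PVR, an adhesion protein that natural killer cells recognise, had 10.06 and 10.05, and the adenosine receptor ADORA2B had 9.11 and 8.85. CD47, the signal that inhibits phagocytosis, had 8.27 and 8.22. The checkpoint ligand CD274 (PD-L1) had 4.11 and 4.16, and the adhesion molecule ICAM1, which inflammation induces, had 5.13 and 5.04.

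Cytokine and growth factor genes also had a share above the off-tissue level, 42 of 89 (47.2%), that was lower than that of protein-coding genes, with a median of 5.42. Within this average 14 genes reached the highest 10% of named genes. The interferons had 0 members with a row and were not analysed here.

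Of 20 chemokines 5 were above, a list that leaves out CXCL8, which was counted with the interleukins. CXCL5, a neutrophil attractant, had 11.91 and 11.88 and was among the 30 highest of all named genes. CCL2, which attracts monocytes, had 9.10 and 9.34, CXCL16 7.24 and 7.09, and CXCL2 6.66 and 6.74. CXCL3 had 5.99 and 5.18, a gap of 0.81, with 1 array on each side of the level. The interferon-induced chemokines CXCL10 and CXCL11 were at 2.21 and 1.83 and at 3.30 and 3.21. CXCR2, the receptor through which CXCL5 acts, was below the off-tissue level, as given above.

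Interleukins and related factors had 8 of 18 above. MIF, macrophage migration inhibitory factor, had 9.91 and 9.91, and IL18, which is stored as a precursor in epithelia, 9.40 and 9.50. The IL-6 family members IL11 and LIF had 8.91 and 8.41 and 8.61 and 8.52. CXCL8, the main neutrophil chemokine, had 6.02 and 5.53, and HMGB1 had 5.31 and 5.90. Both are counted as above, with 1 array on each side of the level. TNF (4.37 and 4.01), IL10 (2.40 and 2.36), IL33 (2.15 and 1.89) and TSLP (3.23 and 2.54), an alarmin of airway epithelium, were below. IL6 and the interleukin-1 genes were not analysed here.

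In the EGF family, EREG, epiregulin, which activates EGFR, had 10.97 and 10.71. The neuregulins NRG1 and NRG4 had 7.07 and 7.21 and 6.92 and 7.15, and HBEGF had 6.06 and 5.82. EGF itself had 3.01 and 3.53, BTC 4.79 and 5.07 and EPGN 2.60 and 2.57. EREG thus gave the strongest signal among the 8 EGF family genes with a row, although their probes differ. Amphiregulin and TGF-alpha were not analysed here.

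Of 43 other growth factors and their binding proteins 25 were above, and 9 were in the highest 10%. The insulin-like growth factor binding protein IGFBP4 had 10.66 and 10.63, FGF2 10.57 and 10.45, and CRIM1, a membrane protein that binds BMPs, 10.47 and 10.51. The neuropeptide neurotensin, NTS, had 10.26 and 10.41, the Wnt inhibitor DKK1 9.91 and 10.07, and endothelin, EDN1, 9.96 and 9.99. GDF15, a stress-induced hormone, had 10.23 and 9.69. VEGFC read 7.62 and 7.39 and VEGFA 6.60 and 6.50. GAS6, the ligand of AXL, was near the level at 6.07 and 5.95, and HGF, the ligand of MET, was far below at 2.78 and 2.56. IGF1, a ligand of IGF1R, had 3.48 and 3.72.

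**Figure D4:**
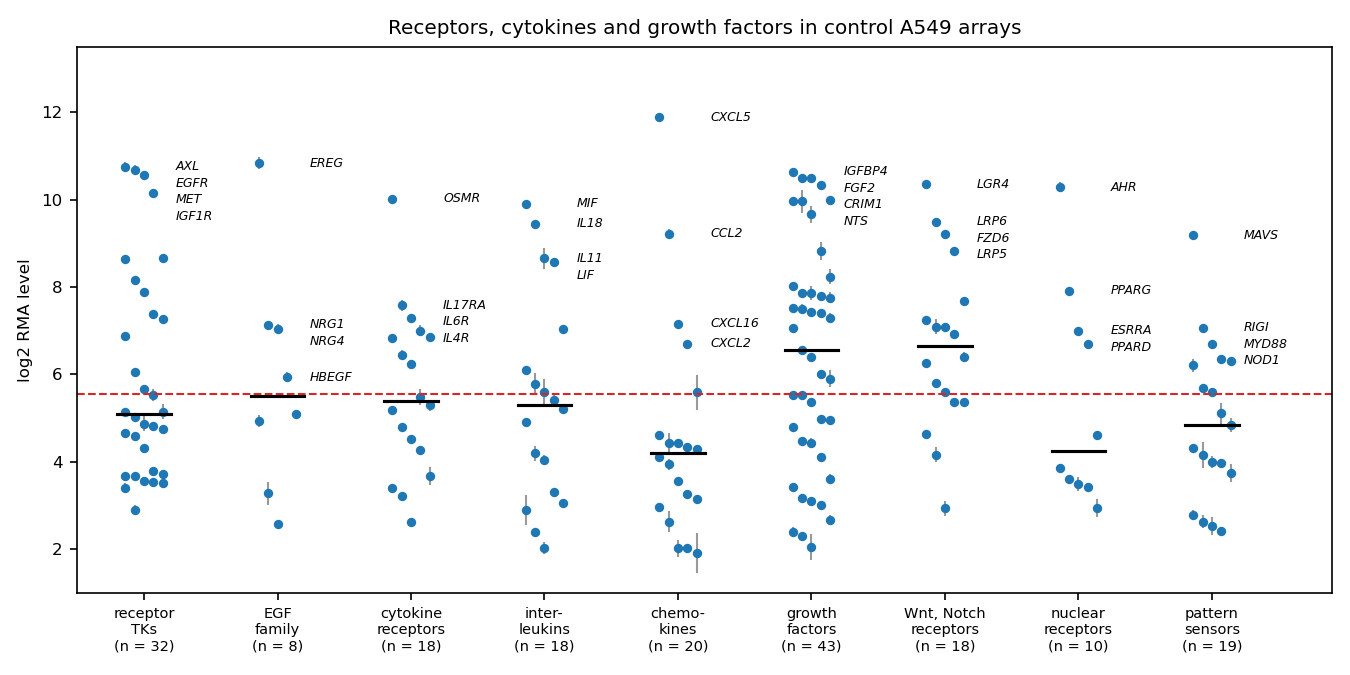
Log2 RMA level of receptor, cytokine and growth factor genes with a named row (points, mean of the 2 control arrays, grey lines spanning both arrays), with list medians (black bars) and the off-tissue level, 5.55 (dashed). The highest 4 members of each list are named. CXCL5, at 11.9, lies well over the other chemokines, whose median with it is 4.19.

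Innate sensing and interferon-stimulated genes were above the off-tissue level in part, with shares under the 56.8% of protein-coding genes. Of 19 pattern recognition genes 8 (42.1%) were above, and the median of the 19 was 4.83. The highest were the mitochondrial adaptor MAVS (9.20 and 9.19) and the RNA sensor RIGI (7.05 and 7.10). The DNA sensor CGAS had 5.69 and 5.67, whereas its partner STING1 had 3.86 and 4.12. Toll-like receptors TLR6 and TLR4 were above, at 6.25 and 6.36 and at 5.62 and 5.58, and TLR7 and TLR8 were at 2.67 and 2.90 and at 2.42 and 2.42. Of 25 interferon-stimulated genes 12 (48%) were above, and the median of the 25 was 4.98. Those above included IFITM2 (9.14 and 9.28), whose sequence is close to that of IFITM3 and IFITM1, and B2M (8.02 and 8.01), the light chain of HLA class I. Also above were the deconjugating protease USP18 (7.76 and 7.49), IFI35 (7.50 and 7.30), IFIT5 (7.28 and 7.37), IRF9, a part of the factor that interferon activates (5.94 and 6.01), and the ubiquitin-like modifier ISG15 (5.64 and 5.83). The 13 below included IFIT1 at 3.43 and 3.51, RSAD2 at 3.20 and 3.09, MX2 at 3.82 and 3.67, and IFI44L at 2.42 and 2.02.

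Cell division genes were high throughout. All 27 with a row were above the off-tissue level, 26 were in the highest 25% of named genes and 20 in the highest 10%, with a median of 9.48. Of all protein-coding genes 56.8% were above. Topoisomerase TOP2A had 11.41 and 11.63, the mitotic kinase PLK1 10.96 and 11.04, the proliferation marker MKI67 10.68 and 10.95 and the replication clamp PCNA 10.66 and 10.82. The lowest was the checkpoint kinase BUB1B, at 7.15 and 7.42. Of the 27, 25 read higher in array 2 than in array 1, with a median difference of 0.12.

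Lung cancer driver genes were above in 18 of 21 (85.7%), against 56.8% of protein-coding genes. The cell cycle kinase CDK4 had 10.42 and 10.42, its cyclin CCND1 9.46 and 9.50, the retinoblastoma gene RB1, which they inactivate, 9.40 and 9.52, and MYC 9.41 and 9.39. STK11, whose protein A549 lacks, still had an RNA signal of 6.93 and 6.99. MYEOV, the gene the series targets, had 6.20 and 6.50, a level at the 62.1st percentile of named genes. Telomerase, TERT, had 5.98 and 5.98. The 3 below were CCND3, CCND2 and CDKN2A.

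CDKN2A, the gene of the CDK4 inhibitor p16, had 3.25 and 3.26. A549 is known to have lost this part of chromosome 9. In the order of the RefSeq gene table, the named genes next to it were also low on either side, with the antisense transcript CDKN2A-AS1 at 3.60 and 3.67 and CDKN2B-AS1 at 2.42 and 2.22. Next outward, MTAP, a methionine salvage enzyme, had 5.95 and 6.06 and DMRTA1 5.78 and 5.48, the latter with 1 array on each side of the level. Readings this near the level are weak evidence that either gene is present, and how far the loss reaches was not tested. Farther out low and high genes alternated: MIR31HG (8.51 and 8.36), KLHL9 (8.24 and 8.09) and FOCAD (8.86 and 8.89) read high on the telomeric side, and CAAP1 (7.60 and 7.52), PLAA (9.58 and 9.64) and IFT74 (8.15 and 8.12) on the other. Of the 16 named neighbours, 8 were above the off-tissue level. Among the low ones HACD4 had 4.51 and 4.94 and TUSC1 4.71 and 4.99. Both transcripts flanking CDKN2A are long non-coding RNAs, a class that read low in general: 13.0% of the 1398 were above.

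Metabolic genes were mostly above the off-tissue level. Of 53 listed, 29 had a row and 27 of these (93.1%) were above, against 56.8% of protein-coding genes. Of 12 fatty acid and sterol synthesis genes all 12 were above, with a median of 8.80, led by the desaturase SCD (11.37 and 11.49) and ACLY, which makes cytosolic acetyl-CoA (10.50 and 10.62). Of 24 listed glycolysis genes 9 had a row, with a median of 7.53. Glycolysis was led by GPI (12.11 and 12.21), followed by LDHB (9.83 and 9.92), and HK2 was the 1 of 9 below, at 5.31 and 4.95. GAPDH, a transcript usually abundant, read 7.54 and 7.51. In serine synthesis PSAT1 had 11.40 and 11.33, PSPH 8.56 and 8.55 and PHGDH 8.52 and 8.36, while the urea cycle enzyme OTC had 2.36 and 2.42. Among proteases and inhibitors the lysosomal protease CTSD had 11.85 and 11.78 and TIMP1, an inhibitor of metalloproteases, 9.56 and 9.40, whereas the collagenases MMP1 and MMP13 had 2.99 and 2.94 and 2.32 and 2.30.

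Markers of other cell types were mostly below the off-tissue level, with 8 of 38 above and a median of 4.46. The lists gave 1 of 7 for leukocytes, 1 of 8 for endothelium, 1 of 6 for fibroblasts and muscle, 2 of 3 for erythroid cells and platelets, 0 of 3 for neural cells and 3 of 11 for germ cells. The count of 8 was 14 with a gene's rows averaged, 14 with the 90th percentile of the off-tissue genes and 5 with the 99th. Of 7 leukocyte genes the 1 above was CD68 (9.49 and 9.28), a lysosomal protein that is not limited to macrophages, and CD14, CD4 and LYZ read 3.67 and 4.53, 3.88 and 4.10, and 2.37 and 2.76. The endothelial markers PECAM1 and EMCN were at 2.77 and 2.45 and at 2.14 and 1.87, and the fibroblast proteoglycans LUM and DCN at 3.59 and 2.83 and at 1.79 and 1.60. ESAM, at 6.08 and 6.01, was the 1 of 8 endothelial genes above. Among germ cell and cancer-testis genes PRAME had 7.02 and 6.89 and LIN28B, a blocker of let-7 microRNA maturation, 6.05 and 6.16. The muscle filament gene DES (6.09 and 6.32) and the platelet gene PF4 (5.72 and 5.63) were above too. The erythroid factor GATA1 (5.82 and 5.41) and the protamine PRM2 (5.52 and 5.72) also counted, with 1 array on each side of the level. A reading little over the level is thus weak evidence of expression.

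Promoter sequence went with the level across genes. For 9707 protein-coding named genes with a promoter in the RefSeq table, the CpG content, as the observed count over that expected from the C and G content, had a median of 0.362 in the lowest decile by level and 0.878 in the highest. It climbed through the lower deciles, to 0.800 in the fifth, and changed little from there. The share with the hexamer TATAAA on the gene's strand between 40 and 19 bases before the start was 9.37% in the lowest decile and 0.618% in the ninth. In the highest decile it was 2.16%. The antioxidant response element was in 12.5% of promoters of the lowest decile and 17.0% of the highest. Genes are not independent replicates and base composition differed between the deciles, with a median GC content of 50.3% and 65.3% at the ends, so these figures are a description.

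**Figure D5:**
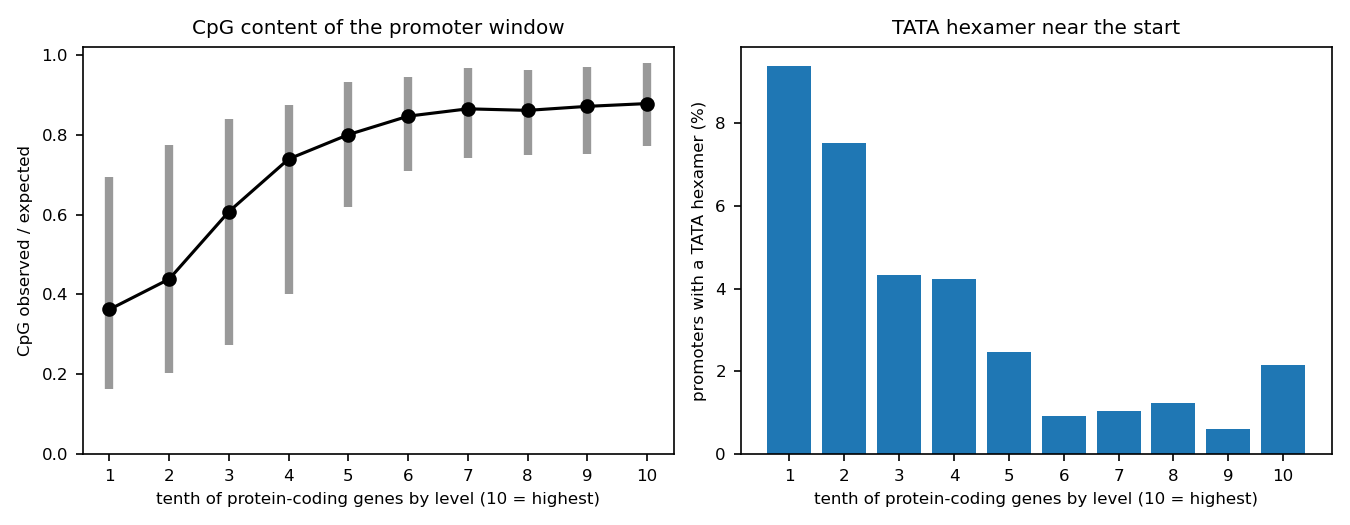
Left, CpG observed over expected in the promoter window by decile of protein-coding genes ranked by log2 RMA level (points, median; grey bars, middle 50% of genes). Right, percent of promoters with TATAAA near the start by the same deciles. CpG content was 0.362 in the lowest and 0.878 in the highest decile, and the hexamer share was 9.37% and 2.16% there, with its minimum of 0.618% in the ninth.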

How the data were processed

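The authors deposited log2 signals for 6 Affymetrix whole-transcript arrays; per the labels total RNA was used, and per the submitters' processing notes the method was RMA (version unstated). Of 53617 rows, 16098 carry exactly 1 gene symbol in the platform annotation, 0 several and 37519 none. All 16098 matched RefSeq gene identifiers (GRCh38.p14) and stand for 14884 genes. For 779 genes with several rows, the row with the highest mean of the 2 control arrays was used. No further normalization was applied, and RMA compresses differences near background. No statistical test was run, since 1 group of 2 arrays allows no comparison. The planned background, olfactory receptor genes, could not be used because only 1 of them had a named row. The off-tissue genes, the second choice, replaced them after the levels had been seen. Of 1089 listed symbols, 635 had a row, and listed genes without one were not analysed here. Any listed gene could be named, the highest and lowest of each list first, as could the 30 highest genes, the 15 highest outside the lists, the 10 that differed most between the arrays, and neighbours of CDKN2A. The lists and the element search were chosen with earlier results of these data known. Ranking and motif steps were tested on simulated data. Python 3.11.15, numpy 2.4.6, pandas 2.3.3 and matplotlib 3.10.9 were used. Precision is limited by the number of arrays.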

Additional observations from a re-analysis of the deposited data

How the results depend on the processing

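The count of genes above the off-tissue level, 7235, ran from 6604 to 8363 over all settings tried, and that of NRF2 output genes was 38 in each. Lung lineage genes above, 10 in the report, were 18 with the rows of a gene averaged (level 5.04) and 19 with the 90th percentile of the off-tissue genes (level 5.0), a setting added after seeing the data. Keratins above, 5 in the report, were 9 under both of these settings. The counts with an array left out are given in the order without replicate 1 and without replicate 2. They were 6860 and 7594 genes, 10 and 13 lung lineage genes, and 38 and 38 NRF2 output genes. Receptors were 49 and 55, cytokines and growth factors 40 and 43, and keratins 4 and 9. The level moved to 5.71 and 5.38, and the gene values were also those of the remaining array alone. Both mattered for the keratins. KRT19 in array 2 (5.50) was below even the unmoved level, and KRT85 and KRT37 in array 1 (5.61 and 5.60) were above it. KRT31 and KRT4 in array 1 (5.42 and 5.41) were above the moved level only. The 90th and 99th percentiles of the off-tissue genes and the hair keratins as a reference were added after seeing the data, and the olfactory receptor settings were not run. Within 0.25 of the level lay 48 of the 635 listed genes, and their side is not settled. Percentiles among all rows of the table, in place of named genes, were up to 20.5 points higher for the 16 genes checked. No paired analysis was possible because the values come from 1 group and no test was made.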

Other observations

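In some gene lists most members differed between the arrays in the same direction, by small amounts, and those given here were picked after their values were seen. Besides the cell division genes, 10 of 12 fatty acid and sterol genes and 10 of 13 mesenchymal genes were higher in array 2, with median differences of 0.09 and 0.12. Chemokines went the other way, with 5 of 20 higher in array 2 and a median difference of -0.13, although 15 of the 20 lay below the off-tissue level, where the arrays differed most. Of the serine and urea cycle genes 1 of 8 was higher in array 2, with a median difference of -0.16. Over all named genes 49.0% were higher in array 2. Of protein-coding genes above the off-tissue level, the widest gap was that of EGR1, an immediate early transcription factor, with 7.26 in array 1 and 6.28 in array 2, named after its values were seen. The widest gaps of all named genes were those of DIP2A-IT1 (2.30 and 4.15) and SCARNA15 (2.62 and 4.34), which lie at low levels. These differences were not tested.

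The large non-coding classes, long non-coding RNAs, microRNAs and transcribed pseudogenes, read lower than protein-coding genes. Small classes did not all do so. Of 8 genes labelled snRNA 8 were above the off-tissue level (median 9.10), and of 23 genes labelled ncRNA 15 were (median 6.10). The snRNA label covers SNAR-B1 and SNAR-C1, with 3 and 5 rows, of which the highest was used. Of 1072 microRNA genes 136 (12.7%) were above the off-tissue level, with a median of 2.92, and of 447 transcribed pseudogenes 119 (26.6%). Their rows measure RNA from the locus, host transcripts included, and not the mature microRNA. Of the 37519 rows with no name 8224 (21.9%) were above, with a highest value of 13.9, so part of the strong signal on these arrays is not named here.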
